A study of Mus musculus with 8 samples.

Results

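The genes described here are those of protein kinase A (PKA), the kinase that cyclic AMP activates. They comprise the catalytic subunits Prkaca and Prkacb and the regulatory subunits Prkar1a, Prkar1b, Prkar2a and Prkar2b. They were found by gene symbol in a table of read counts, and 6 genes of 18939 made up the set. Each had counts above 0 in all 8 libraries, so that none was lost to a filter on low values.

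The libraries came from translating ribosome affinity purification and sequencing (TRAP-Seq) of neurons expressing the mu-opioid receptor (MOR) in the paraventricular thalamus (PVT). All mice, controls included, were OPRM1cre X EGFP-L10a on a C57Bl/6J background and 8 to 12 weeks old when the experiment began. In this cross Cre is expressed from the Oprm1 locus and switches on a GFP-tagged ribosomal protein at Rosa26, and RNA bound to tagged ribosomes was pulled down with anti-GFP antibodies. The morphine group (4 libraries) drank morphine raised to 0.5 mg/ml in 0.2% saccharin for 11 days, and the control group (4 libraries) drank 0.2% saccharin alone, which the labels call control drinking water. Each library was stated to pool the dissections of 2 mice of 1 sex, and each group had 2 male and 2 female libraries. The dissection was a gross one aimed at the PVT, so that tagged ribosomes of neighbouring structures can be in a library. The comparison of the groups asks how PKA transcripts on ribosomes of these neurons stand after chronic morphine.

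PKA is a tetramer of regulatory and catalytic subunits in which the regulatory dimer keeps the catalytic subunits inactive until cyclic AMP binds to it. MOR couples to inhibitory G proteins, which lower adenylyl cyclase activity and so the cyclic AMP that reaches PKA, and a rise of cyclic AMP signalling during prolonged opioid exposure is a long known feature of opioid dependence. Type I holoenzymes contain Prkar1a or Prkar1b and are largely cytosolic, whereas type II holoenzymes contain Prkar2a or Prkar2b and are mostly held in place by A-kinase anchoring proteins.

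The control libraries held 37081348 to 43311793 counts in total and the morphine libraries 31151103 to 47582947. At this depth the weakest subunit, Prkar2b, had 3235 to 4470 counts per library and the strongest, Prkar1a, 35663 to 56907, so that the spread between libraries and not counting error set the precision. Oprm1, which drives the tag, was at 16.8 to 32.3 CPM (counts scaled to a common library total) in the control libraries and 14.0 to 18.4 in the morphine libraries. The 10 thalamic and PVT marker genes summed to 2479 to 3286 CPM in control libraries and 1870 to 3262 in morphine libraries, and all 10 had a log2 fold change below 0 with a median of -0.228. Markers of choroid plexus summed to 36.12 to 111.6 CPM in control and 130.0 to 402.8 CPM in morphine libraries, which did not overlap. Of 13 telencephalic pyramidal neuron markers 11 had a log2 fold change above 0, with a median of 0.883. Neurod6 was at 1.51 to 13.7 CPM in control and 30.6 to 70.8 in morphine libraries, and Bhlhe22 passed the edgeR test (log2 fold change 1.13, adjusted P value 0.0176). Striatal markers were at 1112 and 920.1 CPM in morphine replicates 4 and 7 against 245.8 to 566.4 in the other 6 libraries. The library labelled female control replicate 5 held 2072 counts of 4 Y-linked genes, against 1 or 2 in the other female libraries and 4240 to 6145 in male libraries, and sex comparisons are therefore given with and without it.

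All 6 subunits were detected in the ribosome-bound RNA of these libraries, and type I regulatory subunits made up most of the regulatory transcripts. No input library was among the 8, so the part of these counts that came from other cells is not known. Levels of different genes were compared as CPM per kilobase (kb) of the counted transcript, as the mean ± SD of all 8 libraries. Prkar1a, the regulatory subunit found in nearly all tissues, was at 376.8 ± 47.6 CPM per kb (range 318.1 to 439.4). Prkar1b, the type I subunit enriched in brain, was at 353.2 ± 31.9 CPM per kb. Prkar1a was above Prkar1b in 6 of 8 libraries with overlapping ranges, so that the order of these neighbours was not larger than their spread. The catalytic subunit Prkacb, of which brain has many splice forms, was at 287.3 ± 25.9 CPM per kb, below Prkar1b in 8 of 8 libraries although the ranges overlapped. Prkaca, the other widely expressed catalytic subunit, followed at 212.5 ± 16.5 CPM per kb, below Prkacb in 8 of 8 libraries with no overlap of the ranges.

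The type II subunits were far lower. Prkar2a was at 32.7 ± 3.68 CPM per kb, and the level of Prkaca was 6.49 times that of Prkar2a. Prkar2b, the type II form typical of brain and fat, was at 30.6 ± 3.63 CPM per kb, and Prkar2a was above it in 7 of 8 libraries with overlapping ranges. Ranked by mean CPM without division by length, Prkar1a stood at rank 37, Prkacb at 45, Prkar1b at 77, Prkaca at 315, Prkar2a at 1492 and Prkar2b at 2476 of the 18939 genes. The 6 genes together took 3625 to 4561 CPM of a library.

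**Figure D1:**
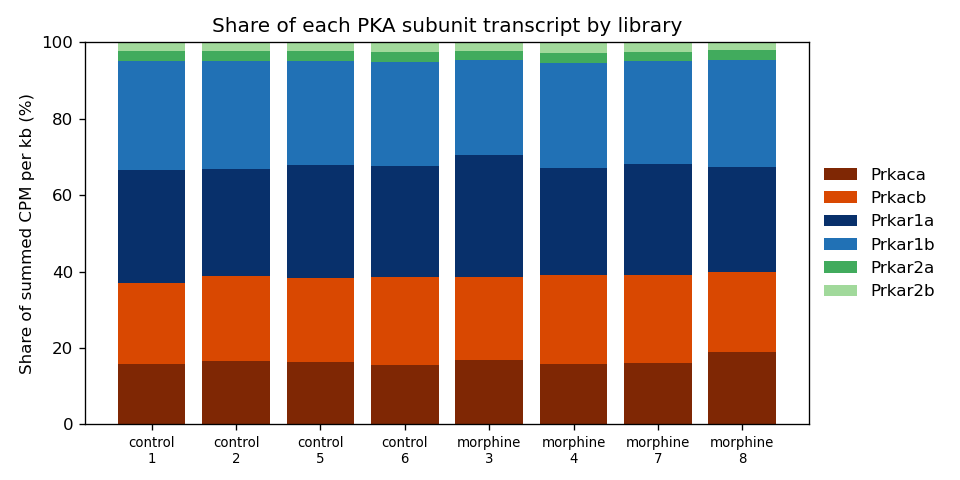
Share of each PKA subunit in the summed CPM per kb of the 6 subunits (percent, vertical axis), for each control and morphine library (horizontal axis). The catalytic subunits took 37.0 to 39.9% and the type II subunits 4.51 to 5.27% in every library, so that the columns look alike.

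Control regions of these genes were examined because cyclic AMP acts on transcription through CREB, a PKA substrate that binds the cyclic AMP response element TGACGTCA or its half-site TGACG. RefSeq promoter windows (GRCm38.p6, up to 250 bases before and 50 bases after a transcription start) were searched on both strands, and the full element contains the half-site on both strands. Of 32851 windows of all genes, 1.79% held the full element and 20.8% the half-site. For each gene the window nearest the counted transcript was taken, and the windows of Prkar1a, Prkaca and Prkar2a held a match. They are shown with Fos, the classical CREB-responsive gene and the one pathway gene that edgeR called below, and the capitals mark the element or half-site, written as CGTCA where the half-site lies on the other strand.
Prkar1a (chr11:109650699-109650998, plus strand, full element 49 and a further half-site 187 bases before the start): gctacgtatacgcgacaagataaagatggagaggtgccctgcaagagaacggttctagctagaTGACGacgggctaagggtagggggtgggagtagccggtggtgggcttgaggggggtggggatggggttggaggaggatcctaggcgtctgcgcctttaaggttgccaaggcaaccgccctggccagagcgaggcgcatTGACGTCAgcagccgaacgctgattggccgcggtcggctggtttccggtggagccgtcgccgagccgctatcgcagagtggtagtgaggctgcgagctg
Prkaca (chr8:83972833-83973001, plus strand, half-sites 120 and 6 bases before the start): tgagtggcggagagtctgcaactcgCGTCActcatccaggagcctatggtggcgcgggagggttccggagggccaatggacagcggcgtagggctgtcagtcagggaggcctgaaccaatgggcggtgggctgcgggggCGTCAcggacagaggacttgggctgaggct
Prkar2a (chr9:108692114-108692168, plus strand, half-site 4 bases before the start): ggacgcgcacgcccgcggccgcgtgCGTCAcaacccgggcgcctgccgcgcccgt
Fos (chr12:85473736-85473853, plus strand, half-sites 129 and 66 bases before the start): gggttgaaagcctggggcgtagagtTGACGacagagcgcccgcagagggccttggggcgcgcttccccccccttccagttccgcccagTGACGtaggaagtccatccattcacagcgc
The nearest windows of Prkacb, Prkar1b and Prkar2b did not hold these letters, although another annotated window did for Prkacb (1 of 3) and Prkar1b (1 of 5). A match is a description of the sequence and not of binding.

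After chronic morphine no PKA subunit passed the test, and all 6 had slightly lower means with morphine than in the control group. The log2 fold changes lay between -0.22 and -0.06 with a median of -0.13, against a median of 0.01 over all genes, of which 48.6% were below 0. Among the 4574 genes with a mean of at least 50 CPM, 57.4% were below 0. With edgeR's quasi-likelihood test 0 of 6 subunits had an adjusted P value under 0.05 (0.195% of all genes, 31 higher and 6 lower), and 1 of 6, Prkar2a, had an unadjusted P value under 0.05 (12.1% of all genes). DESeq2 and limma-voom each called 0 of 6 as well (3.29% and 0.121% of the genes they tested) and each gave 2, Prkar1b and Prkar2a, an unadjusted P value under 0.05 (12% and 12.6% of all genes). In these bulk libraries fewer cells of a type and less RNA per cell cannot be told apart.

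**Figure D2:**
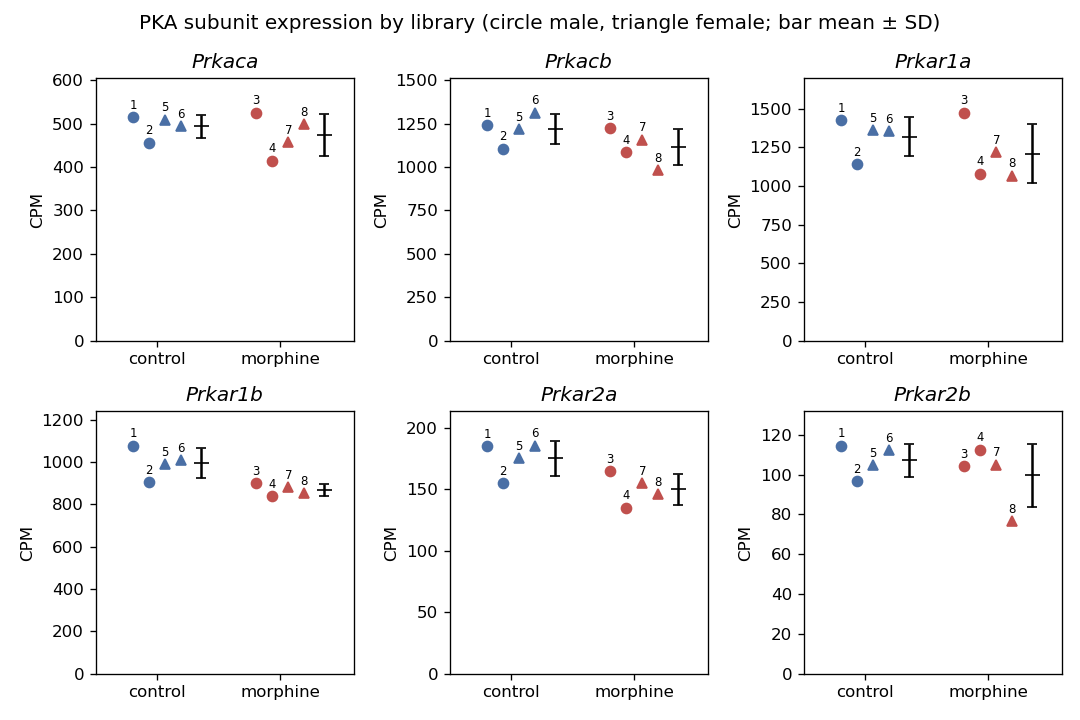
CPM of each PKA subunit (vertical axis, linear from 0) in the 4 control and 4 morphine libraries, with the replicate number at each point, circles for male and triangles for female libraries, and bars for the mean ± SD of a group. Of the 6 genes, Prkar1b has all 4 morphine libraries (838.9 to 899.2 CPM) below all 4 control libraries (903.9 to 1078 CPM).

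Among the catalytic subunits, Prkaca (GRCm38.p6 chr8:83972978-83996444, plus strand) was at 514.7, 456.3, 508.8 and 493.6 CPM in control replicates 1, 2, 5 and 6 and at 525.4, 414.5, 457.3 and 498.1 CPM in morphine replicates 3, 4, 7 and 8. Both the highest and the lowest library belonged to the morphine group, and the groups overlapped. The means were 493.4 ± 26.2 CPM in control and 473.9 ± 48.5 CPM in morphine libraries (SD, n = 4), a log2 fold change of -0.06 ± 0.10 (SE, 95% interval -0.28 to 0.16) with an edgeR adjusted P value of 0.852. The interval corresponds to a change between -17.7 and 12.1%.

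Prkacb (chr3:146729579-146812946, minus strand) was at 1242, 1106, 1219 and 1314 CPM in the control libraries and at 1226, 1087, 1158 and 982.7 CPM in the morphine libraries, in the same order of replicates. Morphine replicate 8 was the lowest of all, morphine replicate 3 lay above 2 control libraries, and the groups overlapped. Its log2 fold change was -0.13 ± 0.11 (SE, 95% interval -0.37 to 0.10, edgeR adjusted P value 0.667). The table lists 4 transcripts of this gene of which the lowest total was 99.584% of the highest, so that most reads were counted on each of them and splice forms could not be told apart.

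Of the type I regulatory subunits, Prkar1a (chr11:109649023-109669663, plus strand) was at 1426, 1140, 1361 and 1357 CPM in control and 1476, 1080, 1219 and 1068 CPM in morphine libraries. Morphine replicate 3 was the highest of all 8 and the other morphine libraries were among the 4 lowest, together with control replicate 2. The log2 fold change was -0.13 ± 0.13 (SE, 95% interval -0.41 to 0.16, edgeR adjusted P value 0.706), with overlapping groups.

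Prkar1b (chr5:139017304-139150703, minus strand) was at 1078, 903.9, 989.1 and 1008 CPM in the control libraries and at 899.2, 838.9, 880.9 and 853.5 CPM in the morphine libraries. Every morphine library was below every control library, although control replicate 2 and morphine replicate 3 were close to each other. All morphine libraries were below all control libraries for 3.21% of the genes tested, and for 1 of these 6. The means were 994.7 ± 71.7 and 868.1 ± 27.1 CPM (SD, n = 4), and the two-sided exact permutation test gave a P value of 0.0286, the smallest that its 70 arrangements allow. In edgeR the log2 fold change was -0.20 ± 0.10 (SE, 95% interval -0.41 to 0.01), the unadjusted P value 0.0638 and the adjusted P value 0.451, so that the difference did not pass the test over all genes. It corresponds to a change of -12.7% (95% interval -24.5 to 0.924%). An exon of the annotated transcript Gm15672 overlaps this gene on the same strand.

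The type II subunit Prkar2a (chr9:108692143-108750444, plus strand) had the lowest edgeR P value of the 6. It was at 184.8, 154.9, 175.1 and 185.5 CPM in the control libraries and 164.6, 135.1, 154.8 and 145.7 CPM in the morphine libraries. Of the 4 morphine libraries, 3 were below the lowest control library, control replicate 2, and morphine replicate 3 lay above it, with morphine replicate 7 just under that control library. The log2 fold change was -0.22 ± 0.10 (SE, 95% interval -0.44 to -0.01), a change of -14.3%, with an unadjusted P value of 0.0432 and an adjusted P value of 0.392 in edgeR. The two-sided exact permutation test gave 0.0571 for Prkar2a. The same test gave 0.571 for Prkaca, 0.171 for Prkacb, 0.371 for Prkar1a and 0.514 for Prkar2b.

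Prkar2b (chr12:31958450-32061648, minus strand) was at 114.6, 96.8, 104.7 and 112.4 CPM in control and 104.3, 112.6, 105.0 and 76.7 CPM in morphine libraries. A single library, morphine replicate 8, was lower than all others, and the remaining morphine libraries lay within the control range. The log2 fold change was -0.10 ± 0.12 (SE, 95% interval -0.37 to 0.16, edgeR adjusted P value 0.753).

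**Figure D3:**
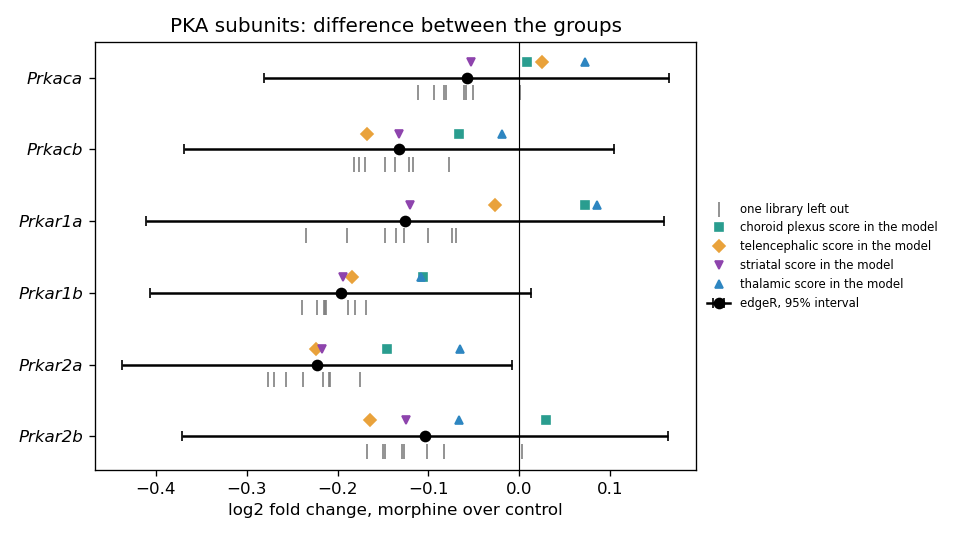
Log2 fold change of morphine over control for each PKA subunit (horizontal axis), with black points and bars for edgeR's estimate and its 95% interval, grey ticks for the 8 fits that each leave out 1 library, and coloured symbols for fits with the mean log2 CPM of a marker list in the model. The interval of Prkar2a (-0.44 to -0.01) lies below 0 and those of the other 5 genes include 0.

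The libraries differed in markers of the thalamus itself and of neighbouring cell types, and the subunit values changed when those markers entered the model. With the mean log2 CPM of the thalamic and PVT markers as a covariate, Prkar2a had a log2 fold change of -0.07 in place of -0.22, Prkar1b of -0.11 in place of -0.20 and Prkacb of -0.02 in place of -0.13. In the same model Prkar2b was at -0.07 in place of -0.10. Prkaca was at 0.07 and Prkar1a at 0.09, the opposite direction to the fit without the markers. The thalamic score was chosen after seeing the data and follows the tissue aimed at, and all 10 of its markers had a log2 fold change below 0. Less of that tissue and a morphine difference within it cannot be told apart by this fit. With the choroid plexus markers in the model Prkar2a was at -0.15, Prkar1b at -0.11, Prkacb at -0.07, Prkaca at 0.01, Prkar1a at 0.07 and Prkar2b at 0.03. With the telencephalic markers Prkar2a stood at -0.22, Prkar1b at -0.18, Prkacb at -0.17 and Prkar2b at -0.16, close to or beyond the values without them, whereas Prkar1a was at -0.03 and Prkaca at 0.03. The choroid plexus marker sums did not overlap between the groups, so that this score and morphine cannot be told apart. With the striatal markers in the model Prkar2a stayed at -0.22 and Prkar1b at -0.19. Without morphine replicate 4 the log2 fold change of Prkaca was 0.0008, and without morphine replicate 8 that of Prkar2b was 0.0031.

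The make-up of the PKA transcript pool was close in both groups. Catalytic subunits took 38.2 ± 0.838% of the summed CPM per kb in control and 39.2 ± 0.520% in morphine libraries (SD, n = 4), type I regulatory subunits 56.8 ± 0.854% and 56.0 ± 0.504%, and type II subunits 4.94 ± 0.0905% and 4.86 ± 0.343%. The share of Prkar2a was the one that did not overlap among the 6 subunits and 3 classes. It was 2.59, 2.57, 2.57 and 2.67% in the control libraries and 2.41, 2.37, 2.50 and 2.54% in the morphine libraries, and every morphine library was below every control library. No test was made of the shares, since they sum to a constant and follow from the values above.

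The ratio of catalytic to regulatory transcripts was 0.588, 0.637, 0.619 and 0.631 in control and 0.631, 0.642, 0.640 and 0.664 in morphine libraries. Control replicate 1 was the lowest and morphine replicate 8 the highest, and the means of 0.619 ± 0.0218 and 0.644 ± 0.0141 (SD, n = 4) differed by 0.06 on the log2 scale with overlapping groups. The ratio of Prkacb to Prkaca was 1.39 ± 0.0703 in control and 1.33 ± 0.161 in morphine libraries, with the lowest ratio, 1.11, in morphine replicate 8. Type I exceeded type II transcripts 10.6-fold to 12.3-fold in every library, with means of 11.5 ± 0.2995 and 11.6 ± 0.840. The ratio of Prkar1a to Prkar1b was 1.04 ± 0.0383 in control and 1.09 ± 0.138 in morphine libraries, where replicate 3 stood at 1.29. The ratio of Prkar2a to Prkar2b was 1.09 to 1.14 in the control libraries but 0.816 in morphine replicate 4 and 1.29 in morphine replicate 8. For these last ratios the morphine libraries spread more widely than the control libraries, and the test of that difference in spread was not made.

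**Figure D4:**
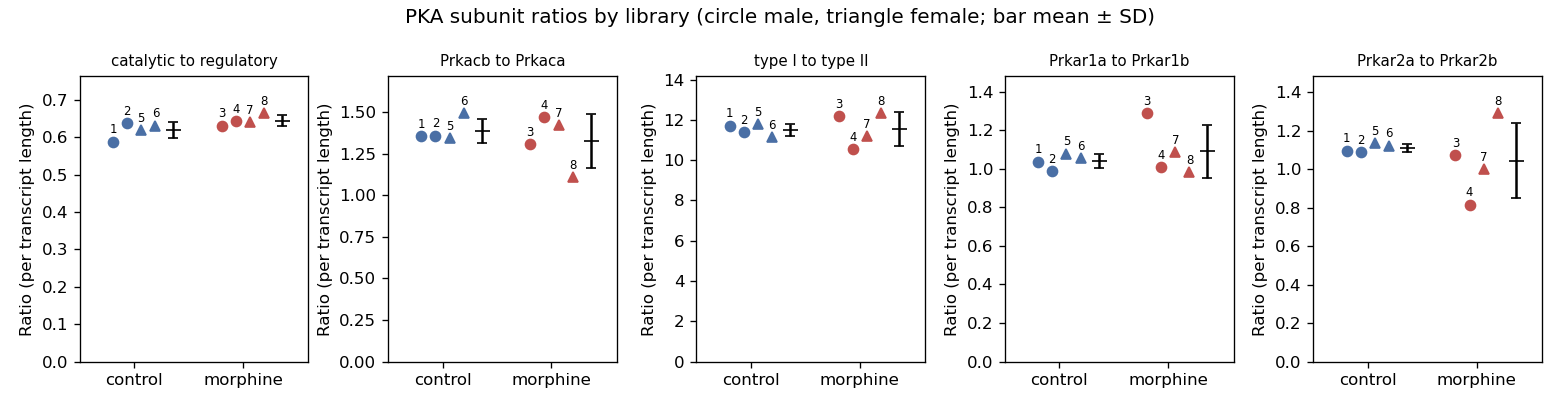
Ratios of PKA subunit levels, each from CPM per kb (vertical axes, linear from 0), in the control and morphine libraries, with replicate numbers, circles for male and triangles for female libraries, and bars for the mean ± SD. The groups overlap in each of the 5 ratios, and morphine replicate 8 has the lowest Prkacb to Prkaca ratio (1.11) and the highest Prkar2a to Prkar2b ratio (1.29).

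The spread of the subunits from library to library was also measured. The SD of log2 CPM over the 8 libraries ran from 0.12 for Prkaca to 0.19 for Prkar2b, against a median of 0.17 for the 4574 genes with a mean of at least 50 CPM, with 4 of the 6 subunits below that median. Of those genes 41.2% had a larger SD than Prkar2b. Profiles were compared as the root mean square difference of log2 CPM after each gene was centred on its own mean. Among the 15 pairs of subunits, Prkar1b and Prkar2a were the most alike at 0.06, and Prkaca and Prkar2b the least alike at 0.22. Over the 9366 genes with a mean of at least 10 CPM, the gene nearest to Prkar1b was Ndufv1, a subunit of mitochondrial complex I, at 0.03, where the median gene was at 0.18. The nearest genes were Vps26a, of the retromer, for Prkaca (0.04), Srsf1, a splicing factor, for Prkar1a (0.04), Zfp512 for Prkar2a (0.03) and Zbtb34 for Prkar2b (0.06). These distances share libraries and depth and are a description.

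No PKA subunit passed the test between female and male libraries. With condition in the model the log2 difference, female minus male, was 0.03 for Prkaca, 0.00 for Prkacb, -0.04 for Prkar1a, 0.00 for Prkar1b, 0.04 for Prkar2a and -0.11 for Prkar2b (SE 0.11 to 0.13). The adjusted P value was 1.00 for each in edgeR, 0 of 6 were called (0.00528% of all genes), and 0 of 6 had an unadjusted P value under 0.05 in edgeR (3.1% of all genes) or DESeq2. The 95% intervals reached from -0.38 (Prkar2b) up to 0.28 (Prkar2a), and that of Prkar1a was the widest at -0.33 to 0.25. Without the library labelled female control replicate 5 the differences were 0.01, -0.01, -0.07, 0.00, 0.04 and -0.13 in the same order of genes, and 0 of 6 were called as well.

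Within the sexes, the log2 difference of morphine minus control for Prkar1b was -0.18 in males and -0.20 in females, and for Prkar2a it was -0.18 and -0.26. Prkacb stood at -0.02 in males and -0.25 in females, Prkar1a at -0.01 and -0.25, and Prkar2b at 0.04 and -0.27, each from 2 libraries against 2. With control replicate 5 left out the female values, now from 1 control library, were -0.22 for Prkar1b, -0.31 for Prkar2a, -0.30 for Prkacb, -0.25 for Prkar1a and -0.32 for Prkar2b. The interaction of sex and morphine did not pass the test for any of the 6 subunits in edgeR (adjusted P value 1.0 for each, 0 of 6 at an unadjusted P value under 0.05 in edgeR or DESeq2). It was -0.29 for Prkar2b with a 95% interval of -0.85 to 0.26, -0.24 for Prkar1a and -0.22 for Prkacb, and without control replicate 5 these were -0.34, -0.24 and -0.27. For Prkaca, Prkar1b and Prkar2a it was -0.02, -0.01 and -0.08, and 0.00, -0.02 and -0.12 without that library. Over all genes edgeR called 0 interactions (0%) and DESeq2 called 4, while 325 (1.72%) had an unadjusted edgeR P value under 0.05.

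Genes that act on PKA, downstream of it or beside it as effectors of cyclic nucleotides were taken from 7 lists, and edgeR called 1 of these 78 genes, Fos (0.195% of all genes). DESeq2, which called 3.29% of the genes it tested, called Fos and also Arhgap36, Bdnf, Npas4, Ppp1r1a, Rapgef3 and Wasf1. Of the 78, 20 had an unadjusted P value under 0.05 in edgeR (25.6%, against 12.1% of all genes), 9 higher and 11 lower with morphine, and the median log2 fold change was -0.01. The lists were chosen with earlier results of these data known, so that these shares are only a description. The numbers also changed with a marker score in the model. Effectors of cyclic nucleotides went from 4 to 0 with the thalamic score and CREB-responsive genes from 6 to 9 with the telencephalic score. The PKA inhibitor proteins block the free catalytic subunit. None of the 3 passed the test in edgeR, DESeq2 or at an unadjusted edgeR P value under 0.05. Pkia, by far the most abundant of them, was at 402.9 ± 11.4 CPM in control and 381.1 ± 36.6 CPM in morphine libraries (SD, n = 4), a log2 fold change of -0.08 ± 0.10 (SE, edgeR adjusted P value 0.757), which was -0.15 without morphine replicate 3 and -0.05 without morphine replicate 4. Pkib was at 25.6 and 21.7 CPM and Pkig at 30.3 and 36.8 CPM (control and morphine means), with overlapping groups for both. Without morphine replicate 3 or 4 the log2 fold change of Pkib was -0.38 or -0.15 and that of Pkig 0.43 or 0.12. The direction of each turned with a marker score in the model, Pkib to 0.09 and Pkig to -0.17 on the log2 scale with the telencephalic score.

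**Figure D5:**
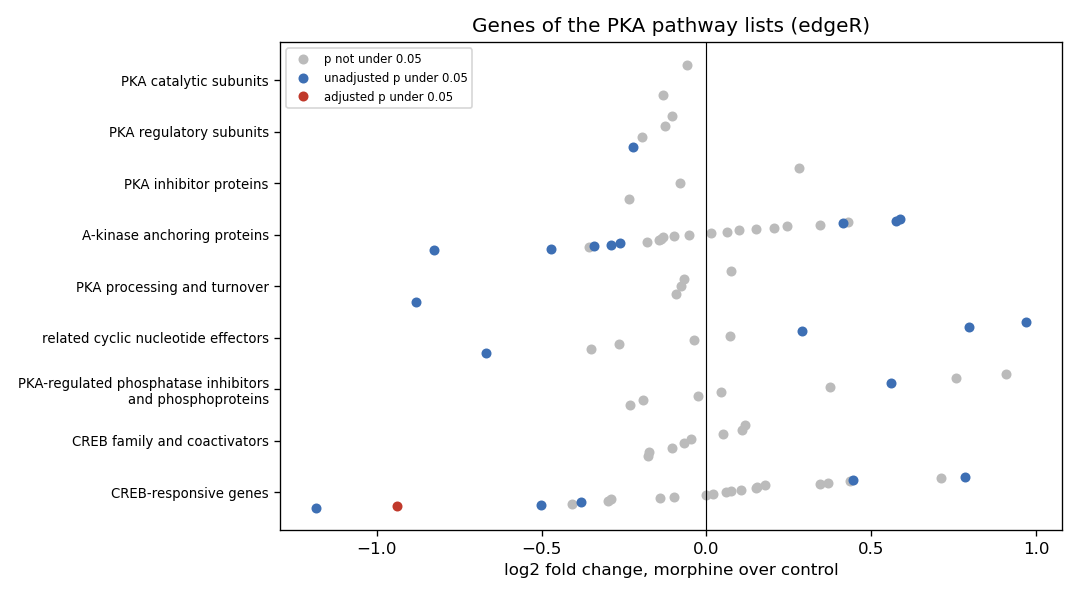
Log2 fold change of morphine over control (horizontal axis) of each measured gene of the PKA subunit and pathway lists (rows), coloured by edgeR's P value. A single point, Fos among the CREB-responsive genes at -0.94, has an adjusted P value under 0.05, and the subunits lie close to 0 as compared to the outer genes of the anchoring, effector and CREB-responsive lists. Some of the outer genes have few counts, such as Akap3 (12 to 46 per library) and Popdc3 (19 to 83).

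A-kinase anchoring proteins tether the regulatory dimer to membranes, cytoskeleton and channels. Of 27 listed, 23 were matched by symbol, and Pakap, Akap4, Map2 and Gskip were not analysed here. By edgeR 0 of 23 were called, while 3 higher and 5 lower genes had unadjusted P values under 0.05 (12.1% of all genes). With the choroid plexus, thalamic or telencephalic score in the model 1, 1 and 2 of the 23 had such an edgeR P value. DESeq2, which called 3.29% of the genes it tested, called 1 of the 23, Wasf1, which anchors PKA at actin. It was at 216.2, 171.6, 201.9 and 218.7 CPM in control and 232.3, 359.7, 328.4 and 283.2 CPM in morphine libraries, a log2 fold change of 0.57 ± 0.14 (SE, edgeR adjusted P value 0.127). Each morphine library was above each control library, and the log2 fold change was 0.29 with the telencephalic score in the model. Akap2, the highest of the 23 matched genes by CPM not divided by length in the control libraries, was at 498.7 ± 81.1 CPM in control and 359.8 ± 50.2 CPM in morphine libraries (SD, n = 4), a log2 fold change of -0.47 ± 0.14 (SE, edgeR adjusted P value 0.201), with overlapping groups, and at -0.09 with the choroid plexus score in the model. The others with an unadjusted P value under 0.05 without a score were Ezr and Gpr161, at 0.42 and 0.59 on the log2 scale, and Akap3 (only 12 to 46 counts per library), Akap17b, Acbd3 and Myrip, at -0.83, -0.34, -0.29 and -0.26. Neurobeachin (Nbea), Akap6 and Akap11, also strongly expressed, had unadjusted P values above 0.05.

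Of 5 genes for the maturation and turnover of PKA, 0 were called by edgeR (0.195% of all genes) and 1, Arhgap36, by DESeq2 (3.29% of the genes it tested). Arhgap36 binds the catalytic subunit and promotes its degradation. In control libraries it was at 36.8 and 31.4 CPM in males and at 18.3 and 22.1 CPM in those labelled female. In morphine libraries it was at 14.4 and 14.3 CPM in males and at 16.5 and 13.8 CPM in females. The groups did not overlap, with morphine lower, as for 3.21% of the genes tested. The control libraries were the more spread, and the female ones lay much closer to the morphine libraries. The log2 fold change was -0.88 ± 0.20 (SE), with an adjusted P value of 0.0962 in edgeR and 0.00276 in DESeq2, and it was -0.47 with the choroid plexus score in the model. Nmt1, which adds the myristoyl group of the catalytic subunit, was at 107.0 and 112.8 CPM (control and morphine means).

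Among 8 other effectors of cyclic nucleotides, 0 were called by edgeR and 1 by DESeq2 (3.29% of the genes it tested), and 3 higher and 1 lower gene had an unadjusted edgeR P value under 0.05 (12.1% of all genes). The exchange factors activated by cyclic AMP lay in opposite directions. Rapgef3 (Epac1) was at 26.3 ± 6.63 CPM in control and 16.6 ± 2.22 CPM in morphine libraries (SD, n = 4), a log2 fold change of -0.67 ± 0.17 (SE) with an adjusted P value of 0.152 in edgeR and 0.0212 in DESeq2, and it was -0.37 with the thalamic and -0.98 with the telencephalic score in the model. Rapgef4 (Epac2), named after its value was seen, had a log2 fold change of 0.29 ± 0.11 (SE) and an edgeR adjusted P value of 0.309. Both genes had groups that did not overlap, Rapgef3 being lower with morphine in this way as were 3.21% of the genes tested. For Rapgef4 the gap was very small, with control replicate 6 and morphine replicate 3 both at 155.5 CPM after rounding. Popdc3, of a family of cyclic AMP-binding membrane proteins, and its relative Bves were the others, at log2 fold changes of 0.97 and 0.80, but with only 19 to 83 and 11 to 39 counts per library. Popdc3 was at 0.59 with the thalamic and 1.46 with the telencephalic score in the model.

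Of 8 PKA-regulated phosphatase inhibitors and phosphoproteins, edgeR called 0 (0.195% of all genes) and DESeq2 called 1 (3.29% of those it tested), and the same gene was the one with an unadjusted edgeR P value under 0.05 (12.1% of all genes). It was Ppp1r1a, inhibitor 1 of protein phosphatase 1, which is active once PKA has phosphorylated it. It was at 37.4, 44.0, 42.7 and 45.3 CPM in control and 50.1, 72.3, 66.6 and 60.6 CPM in morphine libraries, each morphine library above each control library. Its log2 fold change was 0.56 ± 0.12 (SE), with an adjusted P value of 0.0902 in edgeR and 0.00411 in DESeq2. It was 0.35, 0.31 and 0.36 with the choroid plexus, telencephalic or thalamic score in the model. Ppp1r1b (DARPP-32), its relative in striatal projection neurons, was at 434.8 and 373.9 CPM in morphine replicates 4 and 7 and at 28.3 to 169.7 CPM in the other libraries, the same replicates in which striatal markers were high, and their part in its value was not tested. Rims1, a presynaptic scaffold, was at 131.7 and 115.3 CPM (control and morphine means) with overlapping groups.

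In the CREB family and its coactivators edgeR and DESeq2 called 0 of 8 (0.195% and 3.29% of the genes they tested), with 0 at an unadjusted edgeR P value under 0.05 (12.1% of all genes). Crem was at 16.7 ± 1.87 CPM in control and 14.8 ± 0.905 CPM in morphine libraries (SD, n = 4), and Atf1 at 10.6 and 11.5 CPM (control and morphine means).

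Among 23 CREB-responsive genes, 1 passed the test in edgeR (0.195% of all genes), and 6 had an unadjusted P value under 0.05 (12.1% of all genes). Fos, an immediate early gene induced by neuronal activity, was at 96.6, 94.7, 74.1 and 94.1 CPM in control replicates 1, 2, 5 and 6 and at 52.4, 50.6, 45.4 and 39.0 CPM in morphine replicates 3, 4, 7 and 8. All morphine libraries were below all control libraries, and the means of 89.9 ± 10.6 and 46.8 ± 6.02 CPM (SD, n = 4) lay farther apart than the libraries of either group. The log2 fold change was -0.94 ± 0.12 (SE), with an edgeR adjusted P value of 0.0176. The call depended on the libraries, with an edgeR adjusted P value of 0.0621 without control replicate 1 and of 0.0905, 0.0550 and 0.0602 without morphine replicate 4, 7 or 8. It was also lost with the choroid plexus, telencephalic or thalamic marker score in the model (edgeR adjusted P values 1.0, 0.589 and 0.407), while the log2 fold change stayed at -0.88, -0.95 and -0.89.

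Bdnf, a neurotrophin gene with a CREB-bound promoter, lay in the other direction. It was at 10.6, 14.7, 13.8 and 13.7 CPM in control and 24.3, 21.8, 17.5 and 27.3 CPM in morphine libraries, with no overlap. The log2 fold change was 0.79 ± 0.15 (SE), with an adjusted P value of 0.0660 in edgeR and 0.000442 in DESeq2, by which 3 of the 23 genes, Fos, Bdnf and Npas4, were called (3.29% of the genes it tested), and it was 0.43 with the choroid plexus score in the model. In addition Npas4, Sik1 and Dusp1 had unadjusted edgeR P values under 0.05 at log2 fold changes of -1.18, -0.50 and -0.38, and Nr4a2 at 0.44, all 4 named after their values were seen.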

How the data were processed

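The authors deposited 1 table of read counts per RefSeq transcript (24488 transcripts of 18939 genes) and library, not normalized. The submitters' processing notes name mm10 and DESeq2, and the methods name Salmon for the authors' own quantification. Its estimates would divide a shared read, unlike this table, whose counting tool is not given in the sources used here. Groups, sexes and replicates came from the labels, and 0 columns were left without a sample. Nothing in the sources gives a sequencing batch, so no value within batches could be made. Where transcripts share a read, the table counts it for each, so the row with the highest total stood for its gene. The plan had assumed 1 count per gene.

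CPM were computed from the counts and TMM library sizes. The quasi-likelihood test of edgeR 4.0.16, run in R 4.3.3 on all genes, compared the groups, with Benjamini-Hochberg adjustment and a threshold of 0.05. Condition was the only term, sex was tested beside it, and the interaction in a model holding both. Exact two-sided permutation tests used log2 of CPM plus 0.5. Replicates are libraries from separate pools of mice. DESeq2 1.42.0, limma-voom (limma 3.58.1), other scalings and filters, sex, marker scores and leaving out each library were alternatives, of which the striatal and thalamic scores were chosen after seeing the data. The scripts were tested on simulated counts. Lengths were those of the GENCODE M21 transcripts, and promoters those of RefSeq on GRCm38.p6. Beside the subunits and PKA inhibitors, the pathway genes named are those called and, per list, the gene with the lowest P value in each direction. Other genes with an unadjusted P value under 0.05, and Nbea, Akap6, Akap11 and Ppp1r1b, were named after their values were seen. The gene nearest in profile to Prkacb is not reported here. The members and lists were chosen with earlier results of these data known. The telencephalic sums are dominated by abundant genes. Marker lists whose sums are not in the text above are summed here in CPM over control and morphine libraries: telencephalic neurons 918.1 to 1303 and 1161 to 1644, habenula 169.8 to 202.0 and 127.8 to 187.4, oligodendrocytes 131.1 to 1292 and 607.3 to 1591, astrocytes 280.9 to 450.1 and 333.9 to 425.7, microglia 7.08 to 16.8 and 7.83 to 15.6, and endothelium 3.90 to 11.4 and 3.99 to 6.82.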

Additional observations from a re-analysis of the deposited data

Results flagged for a closer look

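In 3 of 52 groups of 4 libraries tested, 1 library stood apart from the others, with the gap to its nearest neighbour taking a larger share of the group's range than Dixon's 95% critical value. Chance flags about 1 group in 20. The ratio of Prkacb to Prkaca was 1.49 in control replicate 6 and 1.34 to 1.36 in the other control libraries (gap 0.896 of the range). Fos was at 74.1 CPM in control replicate 5 and 94.1 to 96.6 CPM in the other control libraries (0.889). Rims1 was at 111.0 CPM in control replicate 2 and 136 to 140 CPM in the other control libraries (0.849).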

How the results depend on the processing

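Over 21 alternatives to the comparison of morphine with control, 118 of 126 values of the 6 PKA subunits kept their sign and none was called, with adjusted P values of 0.154 to 1.0. Log2 fold changes of the opposite sign came for Prkaca with the choroid plexus (0.0088), telencephalic (0.0253) or thalamic score (0.0722) in the model and without morphine replicate 4, for Prkar1a with the choroid plexus (0.0717) or thalamic score (0.0855), and for Prkar2b with the choroid plexus score (0.0297) and without morphine replicate 8. Leaving out 1 library moved Prkaca from -0.1114 to 0.0008, Prkacb from -0.1820 to -0.0772, Prkar1a from -0.2351 to -0.0702, Prkar1b from -0.2396 to -0.1690, Prkar2a from -0.2770 to -0.1756 and Prkar2b from -0.1680 to 0.0031. Of other genes, Pkib turned with the choroid plexus (0.0815) and telencephalic score (0.0871), Nmt1 with the telencephalic score (-0.0056), Pkia with the telencephalic (0.0372) and thalamic score (0.0079), and Pkig with the telencephalic (-0.1652) and thalamic score (-0.0285). Leaving out 1 library moved Nmt1 from 0.0015 to 0.1434, Atf1 from 0.0408 to 0.1433 and Rims1 from -0.2883 to -0.1165, the farthest values coming without morphine replicate 7 or 3 for Nmt1 and without morphine replicate 3 for the low value of Atf1. In the sex comparison Prkar1b turned to -0.0038 without control replicate 5 and Prkacb to 0.0034 with DESeq2, and the interaction of Prkaca to 0.0046 without control replicate 5. For these signs the cause was not tested. Marker scores moved further values of the same sign by more than 1.5 times, among them those of Crem (-0.3504 and -0.3380 with the choroid plexus and telencephalic score), Rims1 (-0.3346, telencephalic), Popdc3 (0.5928, thalamic) and Atf1 (0.1902, telencephalic, and 0.1950, thalamic).

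The number of all genes called, 37, was 502 with DESeq2, 23 with limma-voom, 14 with filterByExpr, 15 with at least 10 counts in every library, 110 with sex in the model, 0 with the choroid plexus, 1 with the telencephalic, 18 with the striatal and 0 with the thalamic score, 22 with counts summed over transcripts, and 0 to 77 without 1 library (0 without morphine replicate 4 or 8, 1 without control replicate 1, 77 without control replicate 6 or morphine replicate 3). Of the pathway genes, DESeq2 also called Arhgap36, Bdnf, Npas4, Ppp1r1a, Rapgef3 and Wasf1, and edgeR called Ppp1r1a without morphine replicate 3. Between the sexes 1 gene was called, 5 without control replicate 5 and 21 with DESeq2, and the interaction gave 0 in edgeR and 4 in DESeq2. Summing transcripts, which counts the reads of Prkacb on 4 transcripts, gave a control ratio of catalytic to regulatory subunits of 1.69 in place of 0.619. No paired analysis was possible because the control and morphine groups share no replicate numbers. With 4 libraries per group, the 95% intervals show which changes of a subunit these data allow.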
